A study of Mus musculus with 12 samples.

Results

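Jak1, Jak2, Jak3, Tyk2, Stat3, Stat4, Stat6, Socs1 and Socs3 encode JAK kinases, STAT transcription factors and SOCS inhibitors, which carry and limit the signal of IL-12 family cytokines and interferons. These 9 genes were taken by symbol from the 21960 genes listed for each of 12 mouse mammary tumors, and all 9 were found. RNA was sequenced from whole tumors of female C57BL/6 mice that carry the polyoma middle T oncogene (PyMT) under the MMTV promoter, which is active in mammary epithelium, with 1 library per tumor and 3 tumors in each of 4 groups. The ages of the mice at sampling are not given in the labels. In the IgG1 and anti-PD-1 groups, mice received a control antibody or an antibody against PD-1, an inhibitory receptor of T cells, starting when the first tumor measured 0.6 cm across, at 20 mg/kg and then at 10 mg/kg up to day 18. In the DOX/IgG1 and DOX/anti-PD-1 groups, treatment started at 1.0 cm with 5 mg/kg doxorubicin, an anthracycline that damages DNA, given weekly for 5 weeks and followed 1 day later by 10 mg/kg of the same antibodies. The treatment field of the labels states 5 weekly treatments for all 12 tumors, which differs from the dosing days described for the groups without doxorubicin. Doxorubicin therefore cannot be told apart from the starting size, the first antibody dose and the schedule.

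Cytokines bind receptors that hold JAK kinases at their inner ends, and the activated kinases phosphorylate STAT proteins, which pair, enter the nucleus and switch on target genes. SOCS genes are among those targets, and their proteins bind JAKs or receptors and shut the signal down. In the mammary gland, STAT5 drives milk protein genes, STAT6 acts in luminal cell development, and STAT3 is needed for the death of milk-producing cells after weaning.

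Levels are given in TPM, the share of a library's transcripts that come from a gene, scaled for transcript length, which allows genes to be compared. The files hold no counts, so the sequencing depth and the lower limit behind a level of 0 are unknown. The labelled tissue was checked on markers of mammary epithelium: the summed level of 7 luminal markers, of which Epcam had the highest mean, lay between 1960 and 3760 TPM, and 0 of the 7 were at 0 in 6 or more tumors. The summed level of 4 basal markers, of which Acta2 had the highest mean, lay between 113 and 579 TPM. Other tissue was present too, since 5 adipocyte markers summed to 36.1 to 476 TPM and 5 skeletal muscle markers to 0.76 to 850 TPM, the highest sum of each in DOX/anti-PD-1 replicate 1. The summed level of 4 endothelial markers was 41.0 to 107 TPM, and that of 4 neutrophil markers 1.48 to 14.2 TPM.

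DOX/IgG1 replicate 1 stood apart from the other tumors. In that tumor, 508 of 11148 genes (4.56%) lay at least 1.5 log2 units below the median of the other 11 tumors, against 78 to 328 genes in each of the other tumors, and the SD of all those differences was 0.82 log2 units, the highest of the 12. Its column header carries the word test, which no label explains, and the headers of the 3 DOX/anti-PD-1 tumors carry a suffix that differs from the other 9. What the suffix marks is not stated, so anything it stands for cannot be told apart from that group. Values without DOX/IgG1 replicate 1 are given beside several of the results below.

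The 9 genes spanned a wide range of levels. Stat3 had the highest median, 229 TPM, and was above Stat6 in 11 of 12 tumors. Stat6 and Jak1, with medians of 77.9 and 74.6 TPM, could not be ordered, since Stat6 was the higher in 6 of 12 tumors. Jak2 followed at 28.9 TPM, below Jak1 in 12 of 12 tumors and above Tyk2, at 20.1 TPM, in 11. Socs3 had a median of 14.1 TPM, with Tyk2 above it in 9 of 12 tumors, and Jak3 a median of 9.43 TPM, below Socs3 in 11. Stat4, with a median of 1.00 TPM, and Socs1 were the lowest, and Stat4 was above Socs1 in 7 of 12 tumors. The spread between tumors of a group, pooled over the 4 groups, also differed between the genes. It was 0.22 log2 units for Jak1, 0.25 for Stat6, 0.28 for Jak3 and 0.29 for Tyk2, below the median of 0.48 over all genes tested. Jak2, at 0.47, lay near that median, and Stat3 at 0.63, Socs3 at 0.66, Stat4 at 0.76 and Socs1 at 0.91 lay above it.

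**Figure D1:**
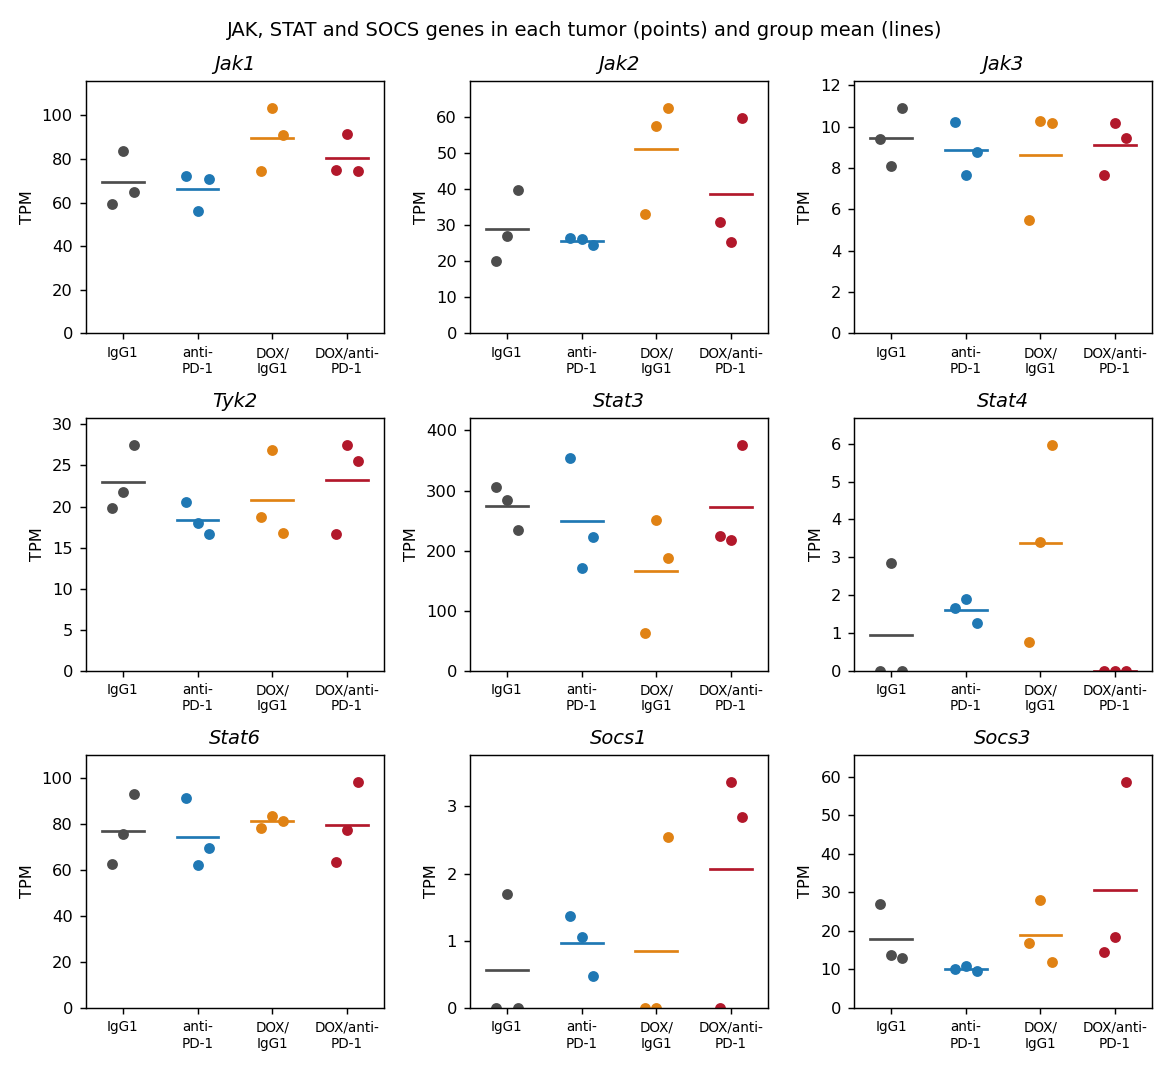
Level of each of the 9 genes in TPM (vertical axis, starting at 0) in the 4 treatment groups, with a point for each tumor and a line for the group mean. Jak1 and Stat6 vary little within groups, Stat3 has a low value in DOX/IgG1 replicate 1, Stat4 has no level above 0 with DOX/anti-PD-1, and Socs3 has its highest value in DOX/anti-PD-1 replicate 3.

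A gene was called when limma gave a Benjamini-Hochberg adjusted p below 0.1 and a log2 fold change above 1 in size, on log2 of TPM plus 1. The antibody was first compared in mice without doxorubicin: 0 of the 9 genes were called in anti-PD-1 against IgG1, where 0% of 13692 genes were called, with 0 of the 9 and 630 of all genes at an unadjusted p under 0.05. With doxorubicin in both groups, 0 of 8 were called in DOX/anti-PD-1 compared with DOX/IgG1, where 0% of 13946 genes were called, with 0 of the 8 and 655 of all genes at an unadjusted p under 0.05. For doxorubicin with the control antibody, limma called 0 of 8 in DOX/IgG1 against IgG1, where 0.0360% of 13874 genes were called, and 1 of the 8 and 1073 of all genes had an unadjusted p under 0.05. For doxorubicin with anti-PD-1, limma called 0 of 9 in DOX/anti-PD-1 against anti-PD-1, where 0% of 13736 genes were called, and 2 of the 9 and 1185 of all genes had an unadjusted p under 0.05. Stat4, one of those 2, passed the minimum level there only through the anti-PD-1 tumors, and is not counted as support. Over all 12 tumors, limma called 0 of 9 for doxorubicin averaged over both antibodies (0.0882% of 14735 genes called), 0 of 9 for anti-PD-1 averaged over both chemotherapy arms (0.00679%) and 0 of 9 for the interaction of both treatments (0.00679%). In these fits 1, 0 and 1 of the 9 and 1751, 703 and 694 of all genes had an unadjusted p under 0.05. Stat4 in DOX/anti-PD-1 compared with DOX/IgG1 and Socs1 in DOX/IgG1 against IgG1 were not tested, because fewer than 3 of the 6 tumors reached 1 TPM.

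The numbers of genes called were small and moved with single tumors. Without DOX/IgG1 replicate 1, they were 122 in place of 5 in DOX/IgG1 against IgG1 and 301 in place of 13 for doxorubicin over both antibodies, and 0 of the 9 genes was called in either. Jak2 and Stat4 in the first and Jak1 and Jak2 in the second were then at an unadjusted p under 0.05. So were 1804 of 13874 genes in the first and 2269 of 14735 in the second. The 5 genes called in DOX/IgG1 against IgG1 with all tumors were Bpifa2, Smr3a, Hist1h2af, Saa1 and Saa2, and the 1 gene called for anti-PD-1 over both arms and for the interaction was Bpifa2. Bpifa2, Smr3a and Hist1h2af were named after their values were seen. Without IgG1 replicate 1, 2 or 3 or DOX/IgG1 replicate 3, 0 genes were called by limma in DOX/IgG1 against IgG1, with 964, 738, 965 and 795 genes at an unadjusted p under 0.05, and without DOX/IgG1 replicate 2 the number was 2. For doxorubicin over both antibodies, limma called 0 genes without IgG1 replicate 2 or anti-PD-1 replicate 1, with 1507 and 1562 at an unadjusted p under 0.05. There it called 2 to 7 genes without anti-PD-1 replicate 2, DOX/IgG1 replicate 3, or DOX/anti-PD-1 replicate 1 or 3, and 20 without DOX/anti-PD-1 replicate 2. With no minimum level, over all genes above 0 in at least 1 of the 6 tumors, the groups of 3 tumors did not overlap for 1 of the 9 genes in anti-PD-1 against IgG1 (8.75% of all such genes, and 9.88% of the genes tested), for 1 in DOX/anti-PD-1 compared with DOX/IgG1 (8.96% and 10.2%), for 0 of the 9 in DOX/IgG1 against IgG1 (12.0% and 14.0%), and for 3 of the 9 in DOX/anti-PD-1 against anti-PD-1 (12.8% and 14.9%). This count without a minimum was chosen after the values were seen.

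Among the kinases, Jak1 serves receptors for interferons and the IL-6 family. Its level was 59.5, 83.7 and 65.0 TPM in the IgG1 tumors, 72.3, 56.1 and 70.9 in the anti-PD-1 tumors, 74.5, 103 and 90.8 in the DOX/IgG1 tumors, and 74.8, 91.7 and 74.7 in the DOX/anti-PD-1 tumors. The 3 DOX/anti-PD-1 tumors lay above the 3 anti-PD-1 tumors, while DOX/IgG1 replicate 1 lay within the range of the IgG1 tumors. Jak1 had a log2 fold change of 0.37 (SE 0.24, adjusted p = 0.759, limma) in DOX/IgG1 against IgG1, of 0.27 (SE 0.22, adjusted p = 0.741) in DOX/anti-PD-1 against anti-PD-1, and of 0.32 (SE 0.16, adjusted p = 0.449) for doxorubicin over both antibodies. The exact permutation test, two-sided and within each antibody, gave p = 0.035 for the last of these, where the smallest p it can give is 0.005. The exact p was 0.1 for DOX/anti-PD-1 against anti-PD-1, the smallest possible with 3 tumors against 3. The median gene moved as well, by 0.12 log2 units for doxorubicin over both antibodies, and scaling by the median of ratios shifted that median by -0.10 and left Jak1 at 0.21. In DOX/anti-PD-1 against anti-PD-1 the value of Jak1 was 0.16 with that scaling, and 0.16 without anti-PD-1 replicate 2. Because whole tumors were sequenced, fewer cells of a type and less RNA per cell cannot be told apart for this or any other gene.

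Jak2 serves the IL-12 receptor, the receptors for prolactin and growth hormone, and that for interferon gamma. Its level was 20.2, 26.9 and 39.8 TPM in the IgG1 tumors, 26.4, 26.3 and 24.4 in the anti-PD-1 tumors, 33.1, 57.6 and 62.5 in the DOX/IgG1 tumors, and 30.9, 25.5 and 59.8 in the DOX/anti-PD-1 tumors. The 3 tumors near 60 TPM had all received doxorubicin, but in both doxorubicin groups at least 1 tumor lay within the range of the matching group without it. The same 3 tumors had the highest summed levels of the 4 basal markers, 409, 579 and 351 TPM, against at most 328 TPM in the others. Most of these 3 sums was Acta2, at 346, 507 and 293 TPM, against at most 212 TPM in the other tumors. Acta2 encodes alpha-smooth muscle actin, which the paper used as a stromal marker. The sums therefore do not show that the other basal markers were high, and any link to Jak2 was not tested. In DOX/IgG1 against IgG1 the means were 51.0 ± 15.8 and 29.0 ± 9.97 TPM (SD, n = 3), and the log2 fold change was 0.80 (SE 0.35, adjusted p = 0.641, limma). Without DOX/IgG1 replicate 1 it was 1.08 (SE 0.33, adjusted p = 0.227), and then the other DOX/IgG1 tumors lay above all 3 IgG1 tumors. For doxorubicin over both antibodies, Jak2 had a log2 fold change of 0.64 (SE 0.25, adjusted p = 0.344), with an exact, two-sided permutation p of 0.05, and after scaling by the median of ratios it was 0.53. The difference in DOX/anti-PD-1 against anti-PD-1, 0.48 (SE 0.33, adjusted p = 0.700), was 0.13 without DOX/anti-PD-1 replicate 3.

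Jak3, which works with the common gamma chain of the receptors for IL-2, IL-4 and IL-15 in lymphocytes, stayed between 5.47 and 10.9 TPM, and Tyk2, the partner of Jak2 at the IL-12 receptor and of Jak1 at the type I interferon receptor, between 16.6 and 27.5 TPM. The lowest Jak3 value was in DOX/IgG1 replicate 1, and the other 11 tumors held at least 7.66 TPM. Across the 4 comparisons of 2 groups, the log2 fold changes of Jak3 ran from -0.16 to 0.11, and the sign in DOX/IgG1 against IgG1 turned from -0.16 to 0.11 without DOX/IgG1 replicate 1, and that in DOX/anti-PD-1 compared with DOX/IgG1 from 0.11 to -0.16. Those of Tyk2 ran from -0.30 in anti-PD-1 against IgG1 to 0.30 in DOX/anti-PD-1 against anti-PD-1, with adjusted p of 0.996 and 0.787. Single tumors moved both: the first was -0.17 without IgG1 replicate 3, and the second 0.16 without DOX/anti-PD-1 replicate 2 and 0.51 without DOX/anti-PD-1 replicate 1. The groups overlapped for Jak3 and Tyk2 in each of the 4 comparisons.

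**Figure D2:**
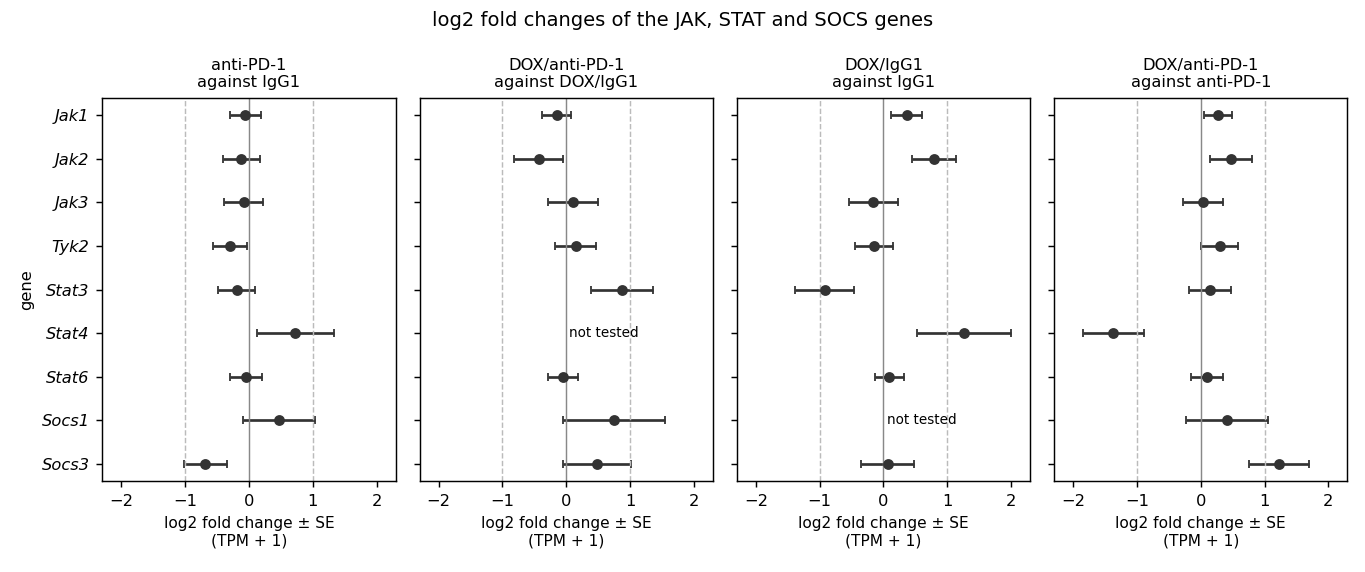
Log2 fold change on TPM plus 1 (horizontal axis, point) with its SE (bar) for each of the 9 genes in the 4 comparisons of 2 groups, with dashed lines at the fold limit of 1. The values of Stat4 lie farthest from 0, above it in DOX/IgG1 against IgG1 and below it in DOX/anti-PD-1 against anti-PD-1, and 0 of the genes were called.

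Stat3, the STAT protein of IL-6 family receptors and also of IL-10 and IL-27, was the most abundant of the 9. Its level was 306, 285 and 234 TPM in the IgG1 tumors, 354, 172 and 223 in the anti-PD-1 tumors, 62.9, 250.1 and 187 in the DOX/IgG1 tumors, and 224, 218 and 375 in the DOX/anti-PD-1 tumors. DOX/IgG1 replicate 1 was far below the other 11 tumors, and the remaining values of the 4 groups overlapped. The log2 fold change in DOX/IgG1 against IgG1 was -0.92 (SE 0.46, adjusted p = 0.684, limma) with all tumors and -0.33 (SE 0.25, adjusted p = 0.620) without that tumor. In DOX/anti-PD-1 compared with DOX/IgG1 it was 0.87 (SE 0.49, adjusted p = 0.988) with it and 0.29 (SE 0.31, adjusted p = 0.877) without it, and the interaction was 1.07 (SE 0.61, adjusted p = 0.993) with it and 0.48 (SE 0.45, adjusted p = 0.893) without it.

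In the same tumor, the genes beside Stat3 on chromosome 11 were low as well. Stat5b, Stat5a and Stat3 follow each other there, and in DOX/IgG1 replicate 1 they lay at -1.99, -2.26 and -1.88 log2 units from the median of the other 11 tumors. Stat5b was at 13.3 TPM against a median of 56.0 TPM in the others, and Stat5a, its close relative and like it an activator of milk protein genes, at 7.78 against 41.0 TPM. The next gene beyond Stat3, listed as Ptrf, was at -1.10, which anti-PD-1 replicate 1 also reached, while Ghdc on the Stat5b side was at -0.06 and Atp6v0a1, beyond Ptrf, at -0.14. Stat6 and Stat4, on other chromosomes, lay at 0.02 and -0.37 in that tumor. Stat5b, Stat5a and Stat3 formed 1 of 4 runs of at least 3 neighbouring genes at or below -1.5 in that tumor, and the number of such runs ranged from 0 to 4 over the 12 tumors. The limit of -1.5, the minimum of 5 TPM in 6 tumors and the 8 neighbours on either side were chosen after the values were seen. In that tumor, the summed levels of 6 fibroblast markers, 360 TPM, of 5 leukocyte markers, 129 TPM, of 13 T and NK cell markers, 13.2 TPM, and of the 7 luminal markers, 1960 TPM, were the lowest of the 12, and that of 8 macrophage and monocyte markers, 945 TPM, was the highest; their part in its Stat3 level was not tested.

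**Figure D3:**
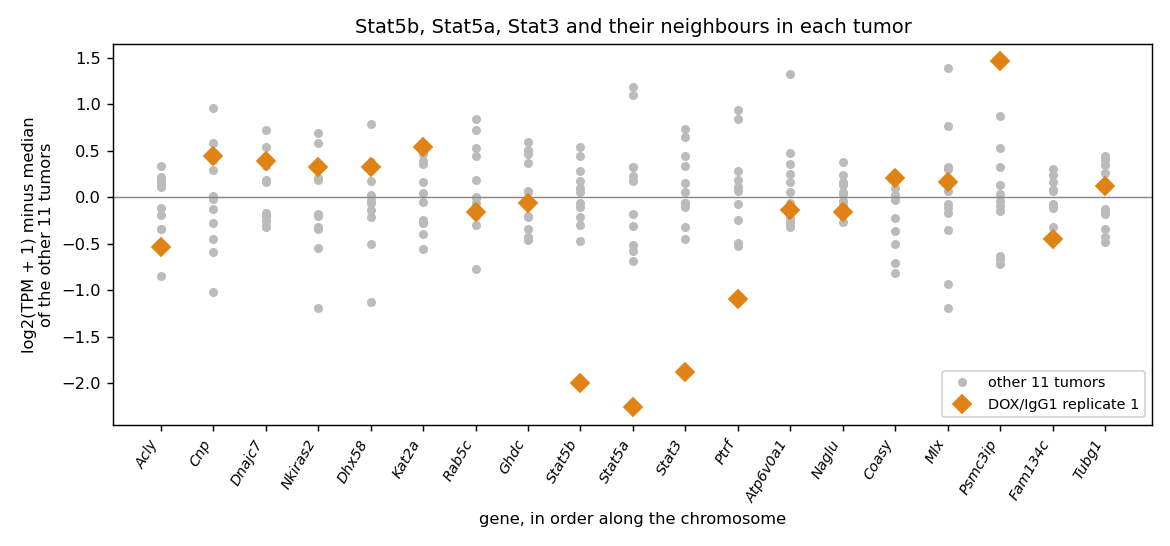
Difference of log2 of TPM plus 1 from the median of the other 11 tumors (vertical axis) for Stat5b, Stat5a, Stat3 and 8 neighbouring genes on either side, in order along chromosome 11 (horizontal axis). The diamonds, DOX/IgG1 replicate 1, lie between -1.88 and -2.26 at Stat5b, Stat5a and Stat3, below all gray points, the other tumors. They also leave the range of the gray points at Psmc3ip and Kat2a, above it, and at Fam134c, below it.

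Stat4 conveys IL-12 signals in T and NK cells and supports interferon gamma production. Its level was 0, 2.84 and 0 TPM in the IgG1 tumors, 1.65, 1.90 and 1.26 in the anti-PD-1 tumors, 0.75, 3.39 and 5.96 in the DOX/IgG1 tumors, and 0, 0 and 0 in the DOX/anti-PD-1 tumors. The DOX/anti-PD-1 tumors, all listed at 0, lay below every anti-PD-1 and every DOX/IgG1 tumor, while the IgG1 tumors overlapped with each of the other groups. The exact permutation test of Stat4, two-sided and run with no minimum level, gave p = 0.1, the smallest possible, for the DOX/anti-PD-1 tumors against the anti-PD-1 tumors and against the DOX/IgG1 tumors. In DOX/anti-PD-1 against anti-PD-1, only anti-PD-1 tumors reached 1 TPM, so the filter let Stat4 in through the group where it was high, and limma with no minimum gave an adjusted p of 0.523. In DOX/IgG1 against IgG1 the log2 fold change was 1.27 (SE 0.74, adjusted p = 0.733), and 1.82 (SE 0.70, adjusted p = 0.324) without DOX/IgG1 replicate 1. With each tumor left out in turn it ran from 0.82 to 1.91. In anti-PD-1 against IgG1 it was 0.73 (SE 0.60, adjusted p = 0.996), from 0.40 without IgG1 replicate 1 to 1.37 without IgG1 replicate 2. The interaction in limma, the difference between the effects of doxorubicin with anti-PD-1 and with IgG1, was -2.64 log2 units (SE 0.86, adjusted p = 0.993), with a TPM of 5.96 as the highest of its 12 values. These values near 0 depend on the constant added before the log: with 0.1 in place of 1 the interaction was -7.16.

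The T and NK cell markers were the list closest to Stat4 in cell type. Their summed level was 38.0, 31.7 and 17.6 TPM in the IgG1 tumors, 16.1, 35.2 and 29.4 in the anti-PD-1 tumors, 13.2, 99.8 and 87.4 in the DOX/IgG1 tumors, and 34.3, 45.9 and 49.0 in the DOX/anti-PD-1 tumors. Both tumors above 80 TPM in that sum, DOX/IgG1 replicates 2 and 3, also had the highest Stat4 levels, whereas the DOX/anti-PD-1 tumors, with Stat4 at 0, had sums above those of all 3 IgG1 tumors in replicates 2 and 3. Of the 13 markers, Cd3e had the highest mean, and Cd3d, Nkg7 and Prf1 were at 0 in 6 or more tumors. The 4 B cell markers summed to at most 3.59 TPM, and all 4 were at 0 in 6 or more tumors. Il12rb1 and Il12rb2, the chains of the IL-12 receptor, were at 0 in 3 and 5 of 12 tumors, and Ifng, the classic target of Stat4, was above 0 in anti-PD-1 replicate 2, at 0.53 TPM, and DOX/IgG1 replicate 3, at 4.29 TPM, and listed at 0 in the other 10. The part of T and NK cell content in the Stat4 level was not tested.

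**Figure D4:**
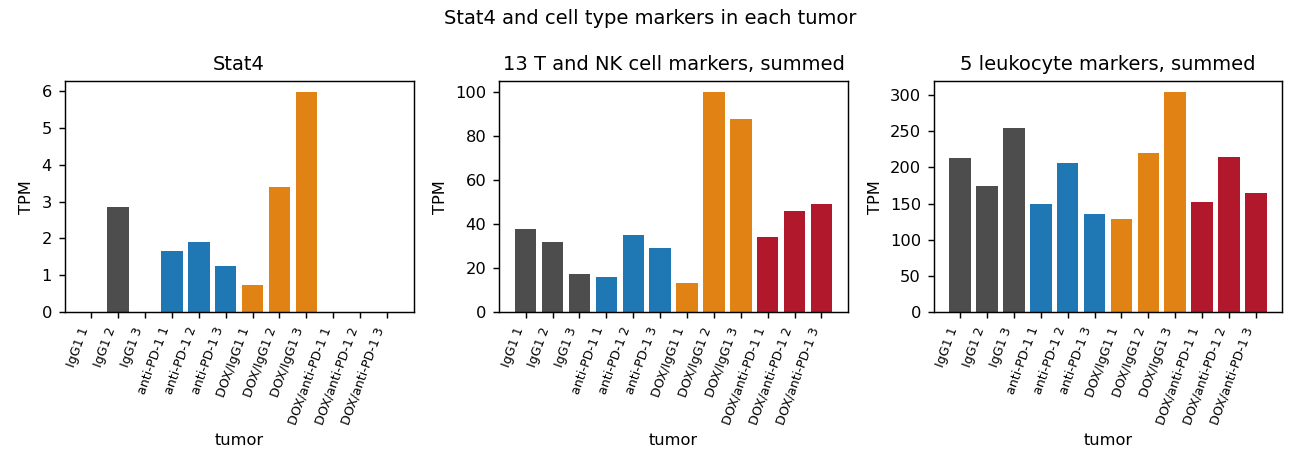
Level in TPM (vertical axes) of Stat4, of 13 T and NK cell markers summed and of 5 leukocyte markers summed, with a bar for each of the 12 tumors, colored by group. Stat4 is absent from the bars of the DOX/anti-PD-1 tumors, whose summed T and NK cell markers are 34.3, 45.9 and 49.0 TPM.

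Stat6, the STAT protein of the IL-4 and IL-13 receptors, stayed between 62.4 and 98.2 TPM. The group means were 77.1 ± 15.2 in IgG1, 74.5 ± 15.1 in anti-PD-1, 81.2 ± 2.51 in DOX/IgG1 and 79.8 ± 17.4 TPM in DOX/anti-PD-1 (SD, n = 3), and each pair of groups compared overlapped. Its log2 fold changes ran from -0.05 to 0.09 over the 4 comparisons, each smaller than its SE, and their signs in both doxorubicin comparisons turned with scaling by the median of ratios.

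Of the inhibitors, SOCS1 blocks JAK kinases directly and restrains interferon signals. The 250 bases before its start are shown because they hold matches to the core of the interferon-stimulated response element, GAAA followed by any 2 bases and GAAA again. They come from RefSeq, build GRCm38.p6, chr16:10785537-10785786, minus strand, with the letters of the matches in capitals.
Socs1: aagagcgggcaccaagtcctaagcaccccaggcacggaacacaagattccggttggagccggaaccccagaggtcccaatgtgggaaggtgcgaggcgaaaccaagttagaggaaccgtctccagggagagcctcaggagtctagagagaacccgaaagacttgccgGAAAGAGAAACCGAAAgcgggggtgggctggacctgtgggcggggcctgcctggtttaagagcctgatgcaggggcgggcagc
The capitals join 2 overlapping matches, GAAAGAGAAA and GAAACCGAAA, whose first bases lie 83 and 77 bases before the start. Searched on both strands, this core was found in 978 of 32851 promoters of that length (2.98%), and among the 9 genes also in a second promoter of Stat4. Such a match is a description of the letters and not a measured binding site.

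Socs1 itself was barely detected. Its level was 0, 1.69 and 0 TPM in the IgG1 tumors, 1.37, 1.05 and 0.47 in the anti-PD-1 tumors, 0, 0 and 2.54 in the DOX/IgG1 tumors, and 0, 3.36 and 2.84 in the DOX/anti-PD-1 tumors. Tumors at 0 occurred in 3 of the 4 groups, and every pair of groups compared overlapped. Over the 3 comparisons of 2 groups in which it was tested, its largest log2 fold change was 0.75 (SE 0.80, adjusted p = 0.990, limma) in DOX/anti-PD-1 compared with DOX/IgG1, and it ran from 0.36 without DOX/anti-PD-1 replicate 2 to 1.42 without DOX/anti-PD-1 replicate 1.

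Socs3 encodes the feedback inhibitor of gp130 receptors, which is itself induced by STAT3. Its promoter is shown because, of the 10 promoter windows of the 9 genes, it alone held TTCNNNGAA, the palindrome that STAT dimers bind; the 250 bases are from RefSeq, build GRCm38.p6, chr11:117969367-117969616, minus strand, with the match in capitals.
Socs3: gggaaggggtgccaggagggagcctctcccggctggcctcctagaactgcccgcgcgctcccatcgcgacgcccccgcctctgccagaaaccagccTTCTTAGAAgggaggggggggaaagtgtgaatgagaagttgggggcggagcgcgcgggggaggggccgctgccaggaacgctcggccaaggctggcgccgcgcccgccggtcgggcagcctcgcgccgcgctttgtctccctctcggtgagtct
The match, TTCTTAGAA, begins 154 bases before the RefSeq start, and TTCNNNGAA, which reads the same on both strands, was found in 2306 of 32851 promoters (7.02%). In the GENCODE annotation, Socs3 spans chr11:117966079-117970047, which holds this whole window, so the 2 annotations place the start differently. That the other windows hold no match says only that these letters are not there.

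The Socs3 level was 26.8, 13.7 and 12.99 TPM in the IgG1 tumors, 10.1, 10.7 and 9.64 in the anti-PD-1 tumors, 16.7, 27.9 and 11.8 in the DOX/IgG1 tumors, and 14.5, 18.3 and 58.5 in the DOX/anti-PD-1 tumors. The anti-PD-1 tumors lay close together, held the lowest 3 values of the 12, and lay below all IgG1 and all DOX/anti-PD-1 tumors. In anti-PD-1 against IgG1 the log2 fold change was -0.68 (SE 0.34, adjusted p = 0.996, limma), and without IgG1 replicate 1 it was -0.36. In DOX/anti-PD-1 against anti-PD-1 the means were 30.4 ± 24.4 and 10.2 ± 0.536 TPM (SD, n = 3), and the log2 fold change was 1.23 (SE 0.47, adjusted p = 0.533), higher in 3 of 3 tumors. Exact, two-sided permutation tests gave p = 0.1 for both, the smallest possible. Without DOX/anti-PD-1 replicate 3, whose 58.5 TPM was the highest of the 12, that log2 fold change was 0.63. The interaction of both treatments was 1.16 (SE 0.68, adjusted p = 0.993) and 0.57 without that tumor. In DOX/IgG1 against IgG1 the log2 fold change was 0.06 (SE 0.42, adjusted p = 0.980), which became -0.04 with scaling by the median of ratios. Single tumors moved it further, to -0.25 without DOX/IgG1 replicate 2 and to 0.38 without IgG1 replicate 1. Comparisons that share a group, such as these with anti-PD-1 tumors as controls or as cases, are not independent of each other.

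The 9 genes were then compared with each other over the 12 tumors. Of 36 pairs, 33 had a Pearson r above 0 on log2 of TPM plus 1, from -0.38 to 0.75, and 0 had a Benjamini-Hochberg adjusted permutation p under 0.05, with 3 under 0.05 unadjusted. Jak3 and Stat3 had r = 0.745 (permutation p = 0.02, adjusted p = 0.449, n = 12) and rho = 0.427 (permutation p = 0.166, adjusted p = 0.743). That relation rested on 2 tumors: without anti-PD-1 replicate 2 and DOX/IgG1 replicate 1, r was -0.019, and without DOX/IgG1 replicate 1 alone it was 0.238. Jak2 and Stat6 had r = 0.629 (permutation p = 0.03, adjusted p = 0.449, n = 12) and rho = 0.692 (permutation p = 0.016, adjusted p = 0.245), with r = 0.531 without the 2 tumors farthest from the median of Jak2. Tyk2 and Stat6 had r = 0.617 (permutation p = 0.037, adjusted p = 0.449, n = 12) and rho = 0.587 (permutation p = 0.05, adjusted p = 0.449), with r = 0.613 without the 2 tumors farthest from the median of Tyk2. After the group means were removed, 0 of the 36 pairs passed.

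Genes whose pattern over the 12 tumors was most like each of the 9, among 13619 genes with at least 1 TPM in 6 tumors, are given as a description with Pearson r. For Jak1 they were Dnajb2 (r = 0.919), Scly and Inpp4a, and for Jak2 Setd7 (r = 0.950), Zcchc24 and Rmnd5a. For Jak3 they were Emilin1 (r = 0.911) and Wisp1, and for Tyk2 Klf6 (r = 0.901), Htr2b and Adgrv1. Stat3 was closest to Slitrk4 (r = 0.935), Awat2 and Jtb, Stat4 to Pin4 (r = 0.915), Samd4b and Nt5c3, and Stat6 to Pnisr (r = 0.915), Plekha2 and Trim56. Socs1 was closest to Unc93b1 (r = 0.876), Tmem14a and Sde2, and Socs3 to Mms19 (r = 0.873), Stab1 and Pip5k1c. No p is given for these likenesses.

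The other genes of the pathway were followed through 9 lists of ligands, receptors, further STAT, SOCS and inhibitor genes, and targets of STAT proteins, 93 genes in all. By limma, 0 of 76 tested were called in anti-PD-1 against IgG1, 0 of 74 in DOX/anti-PD-1 compared with DOX/IgG1 and 0 of 76 in DOX/anti-PD-1 against anti-PD-1, with 6, 6 and 18 at an unadjusted p under 0.05, beside 4.6%, 4.7% and 8.63% of all genes, of which 0% were called in each. Of these listed genes, Csn2 in the second and Il12a in the third reached 1 TPM in one of the 2 groups only, which leaves 6, 5 and 17. In DOX/IgG1 against IgG1, 2 of 75 were called, both lower, beside 0.0360% of all genes, and 9 had an unadjusted p under 0.05, beside 7.73% of all genes, 8 of the 9 without Csn2, which reached 1 TPM in IgG1 tumors only. Setting such genes aside was decided after the values were seen. Those called were Saa1 and Saa2, acute phase proteins that STAT3 helps to induce. Saa1 was at 132, 173 and 156 TPM in the IgG1 tumors and 20.3, 30.5 and 12.4 in the DOX/IgG1 tumors, and Saa2 at 74.7, 64.9 and 71.6 TPM against 15.3, 9.19 and 9.12. Saa1 fell by 2.88 log2 units (SE 0.33, adjusted p = 0.0334) and Saa2 fell by 2.58 (SE 0.29, adjusted p = 0.0334), each lower in 3 of 3 tumors. These calls were lost without IgG1 replicate 1 (adjusted p = 0.281 for each), 2 (0.226 and 0.209) or 3 (0.317 for each) and without DOX/IgG1 replicate 3 (0.116 and 0.145), and that of Saa2 also without DOX/IgG1 replicate 2 (0.138). They were lost with replicate number as a block too (adjusted p = 0.113 for each), while the log2 fold changes in the fits that lost a call lay between -2.99 and -2.47. In DOX/anti-PD-1 against anti-PD-1, Saa1 had a log2 fold change of -1.29 (SE 0.45, adjusted p = 0.504), which was -0.75 without DOX/anti-PD-1 replicate 1. Saa2 had one of -0.98 (SE 0.34, adjusted p = 0.504), which was -0.65 without anti-PD-1 replicate 3, and neither gene was called.

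Over both antibodies, limma called the same 2 of 81 listed genes for doxorubicin, Saa1 at -2.09 log2 units (SE 0.30, adjusted p = 0.0446) and Saa2 at -1.78 (SE 0.23, adjusted p = 0.0336), with 19 at an unadjusted p under 0.05, beside 0.0882% of all genes called and 11.9% under 0.05. Both calls were lost without IgG1 replicate 2 (adjusted p = 0.101 for each) and without anti-PD-1 replicate 1 (0.154 for each), and that of Saa1 without DOX/IgG1 replicate 3 (0.133). An additive model without the interaction lost both as well (adjusted p just above 0.1). In the fits that lost a call, the log2 fold changes lay between -2.09 and -1.93 for Saa1 and between -1.81 and -1.78 for Saa2. Without DOX/IgG1 replicate 1, 5 of the 81 listed genes were called, beside 301 of all 14735 genes. Among those 5 was the milk protein gene Csn1s1 at -2.10 (SE 0.36, adjusted p = 0.0173), which was at -1.73 (SE 0.44, adjusted p = 0.217) with all tumors. For anti-PD-1 over both arms and for the interaction, 0 of 81 were called by limma, with 7 and 7 at an unadjusted p under 0.05, beside 4.77% and 4.71% of all genes.

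The lists are described by their medians, with no test of a list. In DOX/IgG1 against IgG1 the median of all genes was 0.12. Of 16 STAT3 targets, 12 lay below 0, with a median log2 fold change of -0.37. Their median was -0.375 in anti-PD-1 against IgG1, which shares the IgG1 tumors, with 11 of 16 below 0. For doxorubicin over both antibodies it was -0.15. Differences between these medians were not tested. Of 8 STAT5 targets, 6 lay below 0, with a median of -0.88 (without Csn2, 5 of 7 with a median of -0.68), and the milk protein gene Csn3 was at -1.79 (SE 0.51, adjusted p = 0.479), and at -1.20 (SE 0.35, adjusted p = 0.212) without DOX/IgG1 replicate 1. Of these 2 lists, 2 and 0 genes were called by limma, Saa1 and Saa2 being the 2, beside 0.0360% of all genes. With Csn2 not counted, 5 of 16 and 1 of 7 had an unadjusted p under 0.05 in limma, beside 7.73% of all genes. The remaining medians were -0.07 for 5 STAT6 targets, 0.57 for 4 STAT4 targets, 0.03 for 4 ligands, -0.06 for 23 receptors, -0.23 for the further STAT genes Stat2, Stat5a and Stat5b, 0.30 for 6 further SOCS genes and 0.01 for 11 other inhibitors. Without DOX/IgG1 replicate 1, the medians were -0.53 for STAT3 targets, -0.90 for STAT5 targets with Csn2 included, 1.23 for STAT4 targets, 0.14 for ligands, 0.29 for further SOCS genes, 0.12 for other inhibitors and 0.15 for all genes. Those of receptors, STAT6 targets and the 3 further STAT genes turned to 0.31, 0.63 and 0.23.

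In DOX/anti-PD-1 against anti-PD-1, where the median of all genes was 0.11 and scaling by the median of ratios shifted it by -0.11, the list medians were 0.13 for STAT3 targets and 0.01 for STAT5 targets. By limma, 7 of 16 and 3 of 8 of these targets had an unadjusted p under 0.05, beside 8.63% of all genes, and 0 were called. The STAT5 targets went both ways, 4 above 0 and 4 below: Csn1s1 was at -1.78 (SE 0.29, adjusted p = 0.307), the smallest adjusted p of the listed genes, and Wap, which encodes whey acidic protein, at -1.27 (SE 0.45, adjusted p = 0.511). Wap was at 2.14 (SE 0.65, adjusted p = 0.996) in anti-PD-1 against IgG1. That value was 1.36 without IgG1 replicate 3 and 3.34 with a pseudocount of 0.1. The DOX/anti-PD-1 tumors, at 8.0, 2.64 and 3.92 TPM of Wap, overlapped with the IgG1 tumors, at 2.68, 6.1 and 0 TPM. The remaining list medians were 0.84 for 3 STAT4 targets, 0.36 for 6 STAT6 targets, 0.14 for 6 ligands (0.21 without Il12a), 0.04 for 22 receptors, 0.29 for the 3 further STAT genes, 0.20 for further SOCS genes and 0.24 for other inhibitors. The ligand Lif, an activator of STAT3, was at 2.95, 2.59 and 4.12 TPM in the anti-PD-1 tumors and at 18.7, 6.29 and 12.1 in the DOX/anti-PD-1 tumors. Its groups did not overlap, like those of Socs3, and its log2 fold change was 1.57 (SE 0.44, adjusted p = 0.479). The IgG1 tumors, however, held 11.25, 11.9 and 11.3 TPM of Lif and the DOX/IgG1 tumors 14.9, 12.6 and 3.08, and its log2 fold change was -1.58 (SE 0.33, adjusted p = 0.577) in anti-PD-1 against IgG1 and -0.38 (SE 0.52, adjusted p = 0.874) in DOX/IgG1 against IgG1. The last of these turned to 0.23 without DOX/IgG1 replicate 3 and was -0.75 without DOX/IgG1 replicate 1. Il12a, which encodes a subunit of IL-12, was at 2.77, 2.13 and 2.23 TPM in the anti-PD-1 tumors and, like Stat4, listed at 0 in every tumor given DOX/anti-PD-1, but also in IgG1 replicate 3 and DOX/IgG1 replicates 1 and 2. Cish, a further SOCS family gene induced by STAT5, had a log2 fold change of 1.21 (SE 0.42, adjusted p = 0.504), which was 0.80 without DOX/anti-PD-1 replicate 3. None of these genes was called there.

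**Figure D5:**
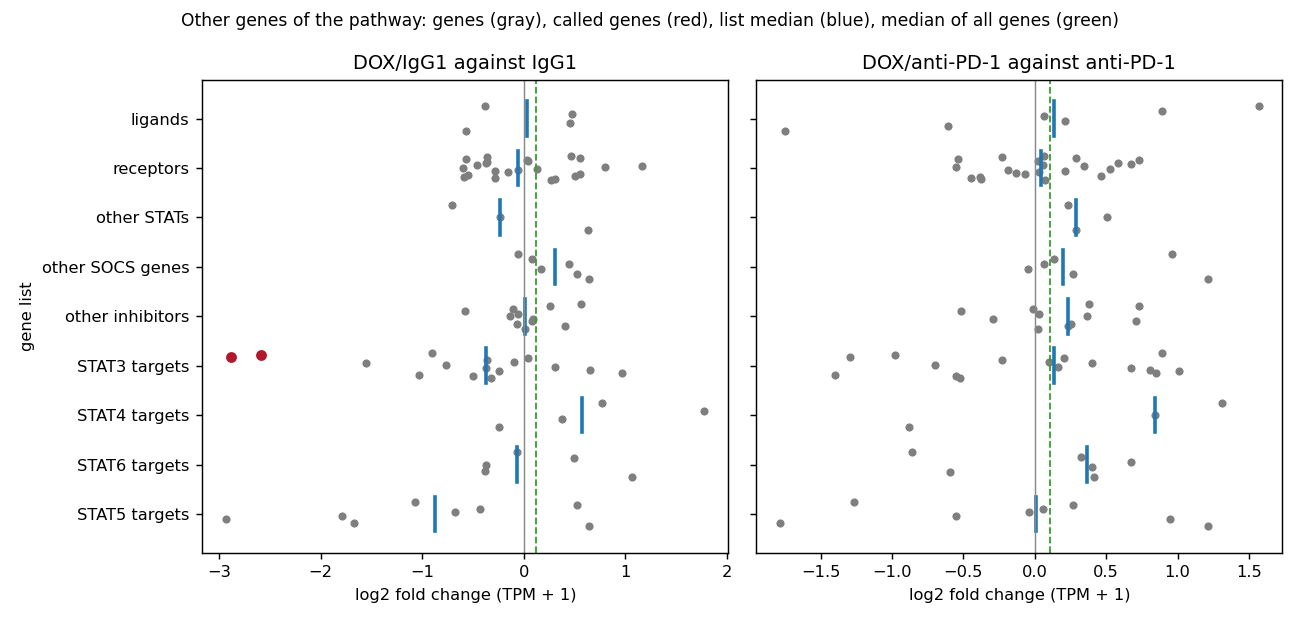
Log2 fold change on TPM plus 1 (horizontal axes) of the genes in 9 lists (vertical axis) in DOX/IgG1 against IgG1 and DOX/anti-PD-1 against anti-PD-1, with called genes in red, list medians as blue bars and the median of all genes as a green dashed line. Saa1 and Saa2 are the called genes. STAT5 targets have a median of -0.88 in the first comparison and 0.01 in the second. The first is -0.68 without Csn2, which reached 1 TPM in IgG1 tumors only.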

How the data were processed

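Total RNA of 12 snap-frozen tumors was made into stranded libraries (SMARTer) and sequenced on an Illumina NextSeq. The authors trimmed reads with skewer, aligned to mm10 using STAR, obtained gene levels from RSEM, and deposited log2 of TPM plus 1 for 21960 genes. Versions of these tools and the depth per tumor are not stated, so counting precision is unknown. From the deposited log2 values, TPM were recovered, and limma 3.58.1 in R 4.3.3 (lmFit, eBayes with trend) was fitted to all genes with at least 1 TPM in 3 tumors of the fit, with Benjamini-Hochberg adjustment. Called genes had an adjusted p below 0.1 and a log2 fold change above 1 in size. The fit was tested on simulated data, in which 200 of the more abundant genes were changed. Of those changed by 1.5 log2 units, it called 91 in DOX/IgG1 against IgG1 and 172 for doxorubicin over both antibodies. Of those changed by 3 log2 units, it called 183 and 199. Changes of 1.5 log2 units were thus often missed with 3 tumors against 3. Single genes were compared by exact permutation tests, 3 tumors against 3 or within strata, and pairs of genes by 100000 permutations. Motifs were searched in the RefSeq promoter table. Alternatives were another pseudocount, other minimum levels, scaling by the median of ratios, a replicate block, no trend, all tumors in one fit, an additive model, and each tumor left out with the tested genes kept. Named were the 9 genes, listed genes past the limits, and those with the largest fold change or highest mean TPM in a list. The genes and lists were chosen with earlier results of these data known. Some withheld items are not reported here, and the lists and totals were computed without them. Protein sequences were not available.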

Additional observations from a re-analysis of the deposited data

Results flagged for a closer look

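Stat4 was picked out because its response to doxorubicin differed between the antibodies at an unadjusted p under 0.05 in the interaction term of limma. The interaction was -2.64 log2 units (SE 0.86), that is, the effect of doxorubicin with anti-PD-1 minus its effect with IgG1. With anti-PD-1, Stat4 was listed at 0 in 3 of 3 doxorubicin tumors and at 1.65, 1.90 and 1.26 TPM without doxorubicin. With IgG1, it was at 0.75, 3.39 and 5.96 TPM with doxorubicin and at 0, 2.84 and 0 TPM without it. The interaction fails the Benjamini-Hochberg adjustment over all genes (adjusted p = 0.993), and 694 of 14735 genes had an unadjusted p under 0.05 in the same fit. Leaving out each tumor in turn gave values from -3.29 to -2.20. The levels lie near 0, where depth is unknown. The limit of an unadjusted p under 0.05 for this selection was chosen after the values were seen. The cause was not tested.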

How the results depend on the processing

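Under every alternative run, 0 of the 9 genes were called by limma in any of the 7 comparisons, over 934 fold changes. Of these fold changes, 62 changed sign, 54 of them with a tumor left out, and the largest reported size among those was 0.48 log2 units. That an uncalled fold change counts as moved only past 1 SD between the replicates of its own comparison, such as 1.117 log2 units for Socs1 in DOX/anti-PD-1 compared with DOX/IgG1, whatever its sign, was decided after the values were seen. By that rule 6 moved, all for Stat4 or Socs1 with a pseudocount of 0.1: Stat4 to 2.45 in anti-PD-1 against IgG1, 3.09 in DOX/IgG1 against IgG1, -4.07 in DOX/anti-PD-1 against anti-PD-1 and -7.16 for the interaction, and Socs1 to 1.92 in anti-PD-1 against IgG1 and 1.84 for anti-PD-1 over both arms. Of 144 correlations under alternatives, 17 changed sign. No p was computed for those without DOX/IgG1 replicate 1, and 0 of the others passed.

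The number of all genes called moved more. Without the trend it was 1 in anti-PD-1 against IgG1, 3 in DOX/anti-PD-1 compared with DOX/IgG1, 13 in DOX/IgG1 against IgG1, 3 in DOX/anti-PD-1 against anti-PD-1, 3 for anti-PD-1 over both arms and 3 for the interaction. In DOX/anti-PD-1 compared with DOX/IgG1 it was 3 with scaling and 2 with all 12 tumors in one fit. For doxorubicin over both antibodies it was 6 with a pseudocount of 0.1, 7 with a minimum of 5 TPM and 3 with the additive model. For anti-PD-1 over both arms it was 0 with a pseudocount of 0.1, a minimum of 5 TPM, scaling, the replicate block and the additive model. For the interaction it was 0 with a pseudocount of 0.1, a minimum of 5 TPM, scaling and the block, and 3 with no minimum. Beside these counts of 0, limma gave 557 to 768 genes at an unadjusted p under 0.05. With 1 tumor left out, the tested genes were kept, and the counts ran from 0 to 4 in anti-PD-1 against IgG1, 0 to 4 in DOX/anti-PD-1 compared with DOX/IgG1, 0 to 122 in DOX/IgG1 against IgG1, 0 to 4 in DOX/anti-PD-1 against anti-PD-1, 0 to 301 for doxorubicin over both antibodies, 0 to 5 for anti-PD-1 over both arms and 0 to 1 for the interaction. The cause was not tested.

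Tumors that share a replicate number are not paired by any label. Over 18 pairs of same-numbered tumors of different groups, the correlation of their deviations from group means lay between -0.10 and 0.13. With replicate number as a block, 2 genes in place of 5 were called in DOX/IgG1 against IgG1, and 0 of the listed pathway genes, where Saa1 and Saa2 had an adjusted p of 0.113 each. The calls of listed genes, the values of Saa1, Saa2, Csn3, Csn1s1, Wap, Lif, Il12a and Cish, and the correlations and list medians without DOX/IgG1 replicate 1 were followed through the alternatives as a choice made after seeing the data.

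With 3 tumors a group, an exact test cannot go below 0.1, so a difference between 2 groups cannot pass 0.05 there. A gene not called is not shown to be equal between groups. Depth is unknown, so Stat4 and Socs1 at 0 cannot be told from low levels.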
